A study of Homo sapiens with 9 samples.

Results

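The HOX genes of clusters A to D were followed in RNA from intracranial tumours of LN229, an established human glioblastoma cell line. Members were all genes of the table named HOXA, HOXB, HOXC or HOXD with a paralog number, with antisense genes and pseudogenes left out, which gave 36 of 18364 genes and 9 in each cluster. The 6 TAZ-4SA tumours grew from LN229-4SA cells, which carry the genotype TAZ-4SA, and the 3 EV tumours grew from LN229-EV cells, the vector line of the design text. TAZ, encoded by WWTR1, is a transcriptional co-activator that works with TEAD factors downstream of the Hippo kinases, and the study asked how its activation drives glioblastoma. Both groups were grown in nude mice, which lack T cells but keep other host cells, and were taken at the terminal stage. The labels give no age of the mice, do not tie tumours to animals and do not say whether each line is 1 clone.

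HOX genes encode homeodomain transcription factors that give cells a position along the body axis. Within a cluster the genes lie in the order in which they are used: low paralog numbers mark the hindbrain, middle numbers the neck and chest, and high numbers the lower trunk, limbs and genital tract. The forebrain develops with little HOX expression, whereas glioblastomas and their cell lines often transcribe HOX genes. Polycomb complexes hold silent HOX clusters shut, trithorax complexes keep active ones open, retinoic acid induces the low-numbered genes, and PBX and MEIS proteins bind DNA together with HOX proteins.

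Libraries held 3144861 to 31468135 recovered reads in TAZ-4SA tumours and 17314672 to 21576264 in EV tumours, and the number of genes without a read was 2990 to 7365 per TAZ-4SA library and 505 to 622 per EV library. Values below are CPM, reads scaled to library size. WWTR1 averaged 331 ± 74.6 CPM in TAZ-4SA tumours and 120 ± 3.17 CPM in EV tumours (SD, n = 6 and 3), a log2 fold change of 1.44 with an adjusted p of 0.002416 (limma, Benjamini-Hochberg). The summed glioblastoma markers, with VIM, SOX2, NES, CD44, S100B, OLIG2 and GFAP all in the table, lay between 2060 and 3370 CPM in TAZ-4SA tumours and between 3363 and 3724 CPM in EV tumours. Of 21 lineage and host markers tested, 16 were not called at an adjusted p under 0.05 (limma). CD44, CD68 and SYT1 rose (beside 9.02% of all genes), while NES and S100B fell (beside 13.3%). SYT1 was the only neuron marker called. The log2 fold changes of the others were 2.61 for SNAP25, -0.69 for RBFOX3 and -2.665 for MAP2. The 3 of 4 microglia and macrophage markers in the table summed to 32.9 to 142 CPM in TAZ-4SA tumours and 13.4 to 24.0 CPM in EV tumours. CD68 carried most of these sums, at means of 88.2 CPM in TAZ-4SA tumours and 16.4 CPM in EV tumours. PTPRC was at 0 in 5 of the 6 TAZ-4SA tumours and CSF1R in 2. Neither was called (adjusted p = 0.7154 for PTPRC and 0.7971 for CSF1R, limma). The 4 neuron markers summed to 71.1 to 1258 CPM in TAZ-4SA tumours and 85.9 to 146 CPM in EV tumours, and the 3 oligodendrocyte markers to 8.52 to 315 CPM in TAZ-4SA tumours and 152 to 239 CPM in EV tumours, with MOG at 0 in every TAZ-4SA tumour. Summed astrocyte markers reached at most 19.6 CPM in TAZ-4SA tumours and 6.77 CPM in EV tumours. Endothelial markers reached at most 4.43 CPM in TAZ-4SA tumours and 1.59 CPM in EV tumours, and fibroblast and pericyte markers 354 CPM in TAZ-4SA tumours and 242 CPM in EV tumours. The part that host cells, reads from mouse RNA and library complexity play in the HOX values was not tested.

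HOX RNA was lower in the TAZ-4SA tumours. The 36 members together summed to 364 ± 91.0 CPM in TAZ-4SA tumours and 649 ± 13.8 CPM in EV tumours (SD, n = 6 and 3), with a range of 246 to 475 CPM in TAZ-4SA tumours and 633 to 659 CPM in EV tumours and so no overlap. In tissue of this kind, fewer cells that express a gene and less of its RNA per cell cannot be told apart. Member by member, 34 had a mean of at least 1 CPM and were tested, and HOXA6 and HOXC12 were not. A call was an adjusted p under 0.05 from limma over all 15578 genes tested. HOXA7 and HOXB13 fell, which is 5.88% of the members tested against 13.3% of all genes, and 0 members rose, against 9.02% of all genes (22.4% in either direction). In this fit the share of members called was thus below the background, and it does not set the clusters apart. At an unadjusted p under 0.05, 10 of the 34 members were lower (29.4%, beside 24.1% of all genes) and 0 higher (beside 12.6%). On the recovered reads, limma-voom called 11 of the 34 lower, a share above the 22.9% of all genes, and 0 higher, beside 8.72%.

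The log2 fold change was negative for 31 of the 34 members (91.2%), beside 67.4% of all genes tested. Its median was -2.21 over the members and -0.85 over all genes. HOXA7 had no read in any TAZ-4SA tumour. Placing HOXA7 at its bound left the member median at -2.21 and could not move it, as the bound also lies below that median. By cluster the medians were -2.78 for HOXA, -2.12 for HOXB, -1.0 for HOXC and -3.18 for HOXD. These values are logs of CPM plus the deposited prior, averaged over tumours, so tumours with 0 reads weigh heavily in them. The log2 ratio of mean CPM, which weighs reads alone, had a median of -0.97 over the members and -0.16 over all genes tested. Over the 10476 tested genes within the members' range in EV tumours, 0.594 to 50.3 CPM, it was 0.065. On that scale the clusters had medians of -1.25 (A), -0.58 (B), -0.51 (C) and -1.91 (D), and the mean CPM of 28 of the 34 members was lower in TAZ-4SA tumours. Quantile normalization, which moved the median of all genes to -0.15, gave a member median of -1.17.

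**Figure D1:**
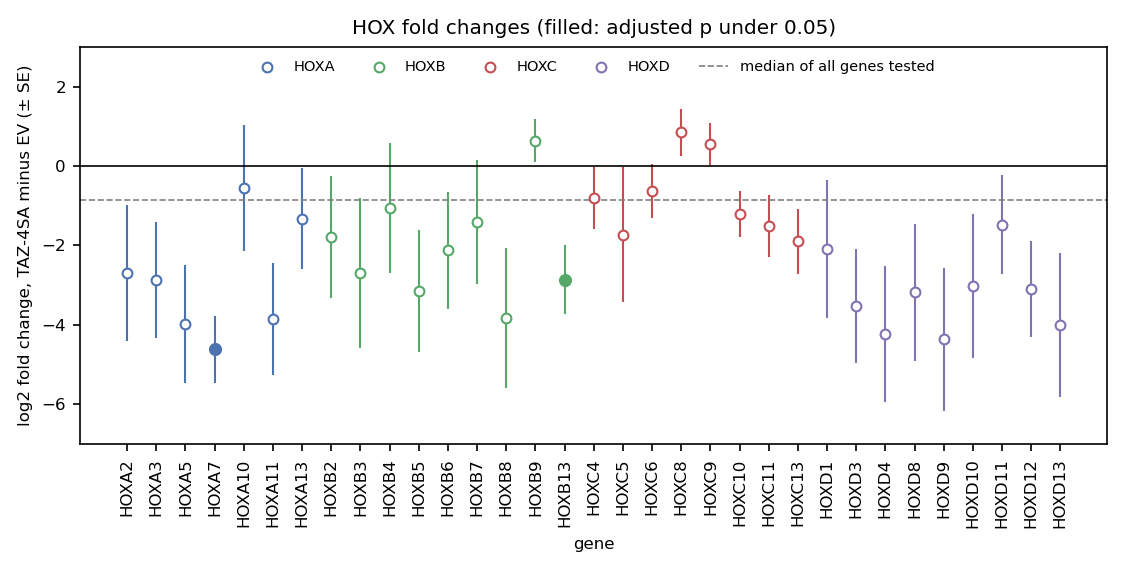
Log2 fold change, TAZ-4SA minus EV, of 33 tested members, with error bars of 1 standard error from limma. Points for HOXC8, HOXB9 and HOXC9 lie above 0 and the other 30 below it, and filled points, HOXA7 and HOXB13, mark an adjusted p under 0.05. The dashed line is the median of all genes tested, -0.85.

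Many members had no reads at all in some TAZ-4SA tumours. In TAZ-4SA tumours 1 to 6, 8, 13, 19, 16, 4 and 7 of the 36 members had 0 reads, whereas every member was read in every EV tumour. The same shares across the 11836 genes of the table in the members' EV range put this in context: 22.2, 36.1, 52.8, 44.4, 11.1 and 19.4% of members were at 0 in TAZ-4SA tumours 1 to 6, and 30.8, 44.8, 41.5, 39.7, 16.0 and 28.7% of all such genes. Members were therefore at 0 less often than other genes in tumours 1, 2, 5 and 6 and more often in tumours 3 and 4, and no test was made of that. Tumour 4, with 16 members at 0, had the most reads of the 9 libraries, and the 2 shallowest, tumours 5 and 6, had the fewest members at 0. The part that depth plays was not tested. Split by EV level in bins chosen after the values were seen, 72.9% of values of members under 5 CPM were 0 beside 62.6% over all genes, 27.8% beside 24.5% from 5 to 20 CPM, and 8.97% beside 9.02% from 20 to 60 CPM.

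**Figure D2:**
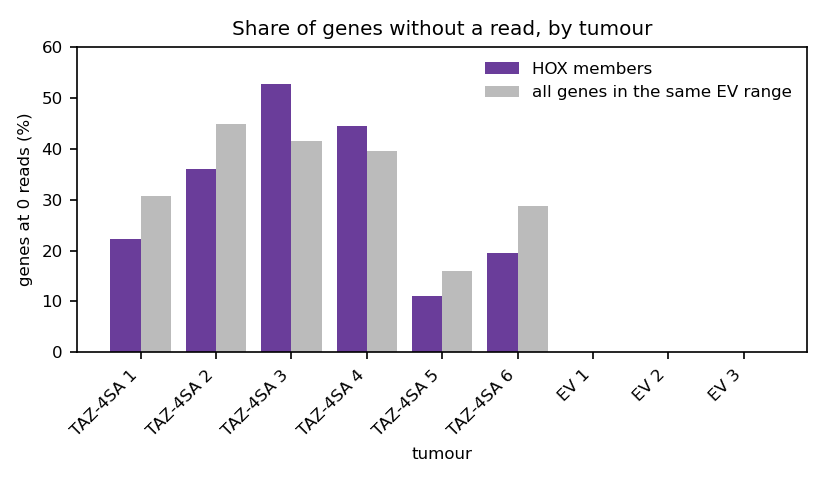
Percent of HOX members and of all genes in the same range of EV level (0.594 to 50.3 CPM) that had 0 reads, for each tumour. In TAZ-4SA tumours members range between 11.1 and 52.8% and all genes between 16.0 and 44.8%, and in EV tumours both bars are at or near 0.

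The gaps fell on different genes in different tumours. HOXA members were at 0 in 44.4% of their TAZ-4SA values, HOXD members in 37.0%, HOXB members in 27.8% and HOXC members in 14.8%. Of the 11 members read in all 6 TAZ-4SA tumours, 7 were HOXC genes, 2 HOXB, 1 HOXA and 1 HOXD. A total of 23 members were at 0 in some TAZ-4SA tumours, and HOXA7 and HOXC12 in all 6. By position, 40.5% of the values of paralogs 1 to 3, 35.7% of paralogs 4 to 8 and 22.2% of paralogs 9 to 13 were 0. Neither split takes account of EV level. Over all genes, the share of TAZ-4SA values at 0 fell with EV level. It was 62.6% from 0.5 to 5 CPM, 24.5% from 5 to 20 CPM and 9.02% from 20 to 60 CPM. The part that level plays in the differences between clusters and positions was not tested. The median SD of log2 CPM was 2.46 over members among TAZ-4SA tumours and 0.272 among EV tumours, beside 1.81 among TAZ-4SA tumours and 0.328 among EV tumours over all genes of the same range. Across the 36 members, Pearson correlations of log2 CPM lay between 0.203 and 0.697 for the 15 pairs of TAZ-4SA tumours and between 0.884 and 0.990 for the 3 EV pairs. These correlations describe pairs of libraries over genes that differ in level and share neighbourhoods.

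**Figure D3:**
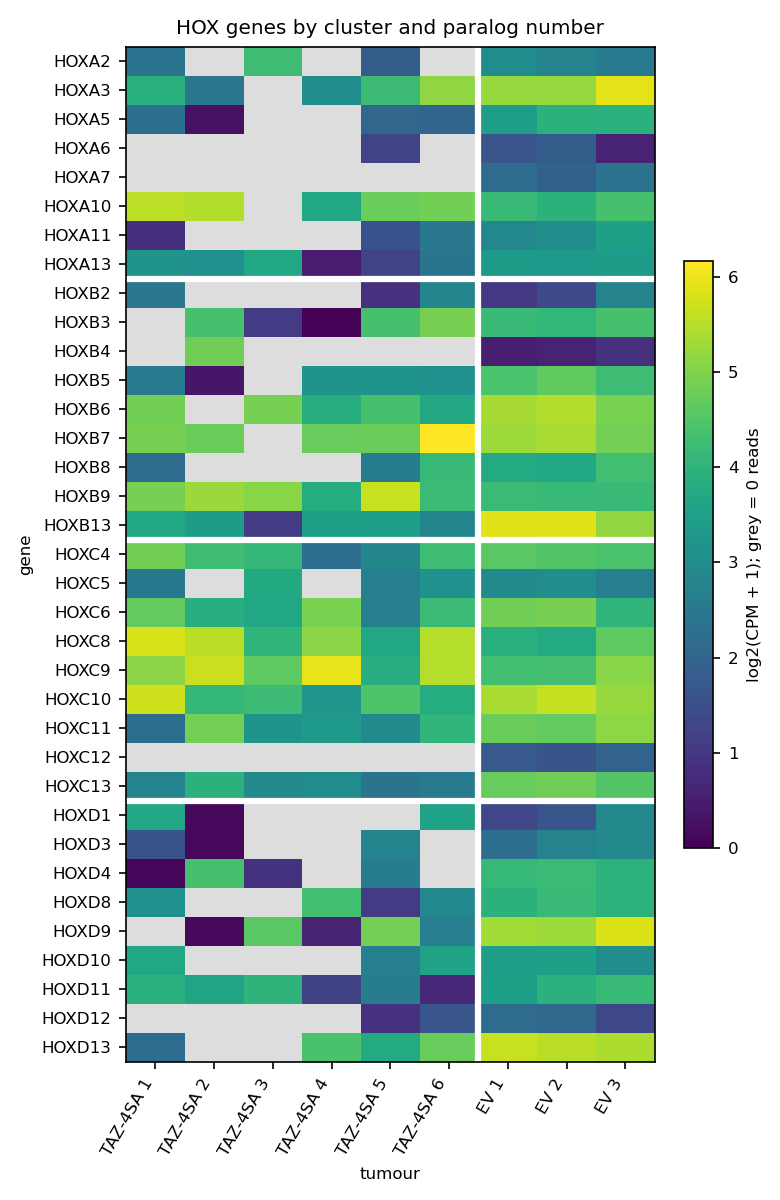
Log2(CPM + 1) of 35 members (rows, by cluster and paralog number, 0 reads in grey) in each tumour (columns, TAZ-4SA 1 to 6 and then EV 1 to 3). EV columns look alike, while TAZ-4SA columns carry grey cells that differ between tumours, with 18 in tumour 3 and 4 in tumour 5.

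Cluster totals separated HOXD most widely. HOXD genes summed to 48.0 ± 13.1 CPM in TAZ-4SA tumours and 155 ± 9.47 CPM in EV tumours (SD, n = 6 and 3), a log2 ratio of -1.69. HOXA summed to 54.8 ± 25.4 CPM in TAZ-4SA tumours and 107 ± 17.7 CPM in EV tumours, and HOXB to 112 ± 39.6 CPM in TAZ-4SA tumours and 197 ± 20.7 CPM in EV tumours, log2 ratios of -0.97 and -0.82. In these 3 clusters the groups did not overlap. HOXC overlapped, with 149 ± 48.6 CPM (73.9 to 206) in TAZ-4SA tumours and 190 ± 4.31 CPM in EV tumours, a log2 ratio of -0.35. HOXC genes thus made up 41.6 ± 11.4% of HOX RNA in TAZ-4SA tumours and 29.2 ± 0.116% in EV tumours, and HOXD genes 13.6 ± 3.82% in TAZ-4SA tumours and 23.9 ± 1.10% in EV tumours. The HOXD shares, 7.91 to 19.0% in TAZ-4SA tumours and 23.2 to 25.2% in EV tumours, did not overlap. The HOXC share was 21.95% in TAZ-4SA tumour 5, below all EV tumours, and between 34.5 and 53.8% in the other 5. Posterior genes, paralogs 9 to 13, made up 51.0 ± 6.84% of HOX RNA in TAZ-4SA tumours and 52.1 ± 0.576% in EV tumours. No test was run on these sums.

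**Figure D4:**
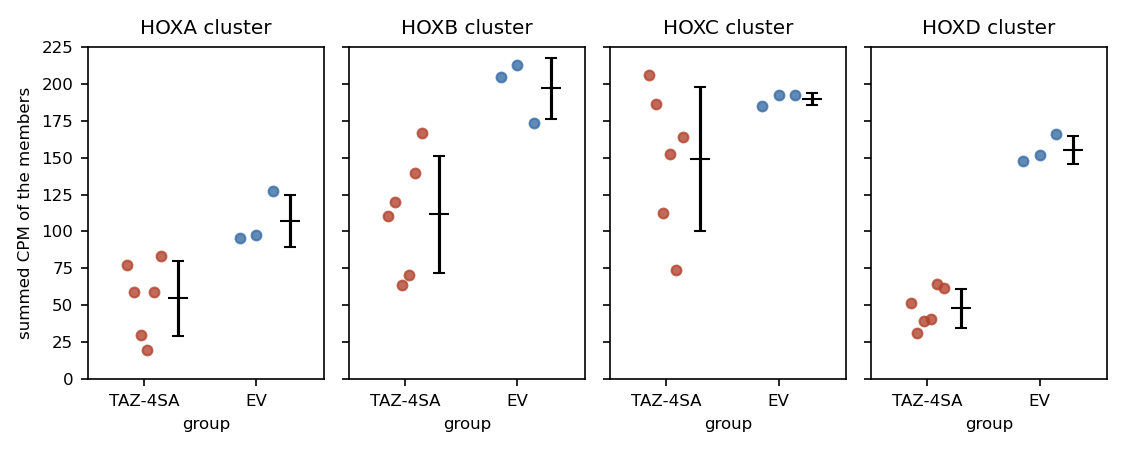
Summed CPM of the 9 members of each cluster, with a point for each tumour and the mean ± SD beside the points (n = 6 TAZ-4SA, n = 3 EV). HOXA, HOXB and HOXD points do not overlap between groups, and HOXC points do.

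HOXA lies on chromosome 7, minus strand (GRCh38 coordinates from RefSeq), and held one of the falls. HOXA7 (chr7:27153716-27156675), a gene of the thoracic region, had 0 reads in each of the 6 TAZ-4SA tumours, against 3.47, 2.79 and 4.13 CPM in EV tumours. At a floor of 3 reads per library it was at least 8.27-fold lower, with a fitted log2 fold change of -4.62 ± 0.84 (SE) and an adjusted p of 0.002478 (limma). Its mean over the 9 tumours, 1.15 CPM, passed the filter through the EV tumours alone, and its 6 TAZ-4SA values have no spread, so the call is no support beyond these reads. Of its exonic bases 74.7% overlap the antisense gene HOXA-AS3, and the library kit does not mark strand, so reads of the pair cannot be told apart. Quantile normalization ended the call, at an adjusted p of 0.08603.

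Other HOXA genes were low or patchy. HOXA3, which in mouse shapes the thymus and parathyroid, had 13.99, 4.44, 0, 7.12, 17.6 and 34.5 CPM in TAZ-4SA tumours 1 to 6, against 36.4, 36.3 and 59.6 CPM in EV tumours. HOXA5, a lung and thoracic patterning gene in mouse, had 3.85, 0.202, 0, 0, 3.08 and 3.06 CPM in TAZ-4SA tumours, against 9.93, 14.5 and 14.2 CPM in EV tumours. For HOXA11, needed for the uterus and forearm in mouse, the values were 0.801, 0, 0, 0, 1.96 and 4.58 CPM in TAZ-4SA tumours, against 6.42, 7.27 and 10.4 CPM in EV tumours. In all 3 genes each TAZ-4SA tumour lay below each EV tumour, yet they missed the threshold, with adjusted p of 0.1758, 0.07215 and 0.06844 (limma). HOXA10, a uterine patterning gene in mouse, went another way, with 46.2, 42.7, 0, 12.1, 26.3 and 27.8 CPM in TAZ-4SA tumours, against 17.0, 14.7 and 19.9 CPM in EV tumours. Its log2 fold change was -0.55 ± 1.58 with all tumours and 0.72 without tumour 3, where it was at 0. HOXA13, the gene of hand-foot-genital syndrome, overlapped between groups at 8.17, 7.67, 11.7, 0.395, 1.40 and 4.28 CPM in TAZ-4SA tumours and 9.28, 9.13 and 9.54 CPM in EV tumours. HOXA2, which patterns the second branchial arch in mouse, reached 18.2 CPM in TAZ-4SA tumour 3, was at 0 in tumours 2, 4 and 6, and had 4.90 to 6.98 CPM in EV tumours. HOXA6 was read only in TAZ-4SA tumour 5 of its group, at 1.40 CPM, and had 0.516 to 2.56 CPM in EV tumours.

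HOXB lies on chromosome 17, minus strand, with HOXB13 (chr17:48724763-48728750) set apart at its far end. HOXB13, the prostate and hindgut gene of the cluster, had 11.9, 9.69, 1.11, 10.3, 9.79 and 6.11 CPM in TAZ-4SA tumours 1 to 6, against 58.5, 57.4 and 34.9 CPM in EV tumours. It had the highest CPM of the members in EV tumours 1 and 2, and each TAZ-4SA value lay below each EV value. The log2 fold change was -2.86 ± 0.88, with an adjusted p of 0.03528 (limma). Leaving out any of the 3 EV tumours ended this call, with adjusted p of 0.1834, 0.1829 and 0.1054 without EV 1, 2 and 3, and so did leaving out TAZ-4SA tumour 6 (0.05002). Leaving out both shallow libraries, TAZ-4SA 5 and 6, gave 0.05169, and thinning all libraries to the shallowest 0.06721.

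Further HOXB genes lay on either side of the EV level. HOXB5, active in neural crest and lung, had 4.70, 0.303, 0, 8.16, 8.12 and 7.64 CPM in TAZ-4SA tumours, against 20.4, 24.4 and 18.2 CPM in EV tumours. HOXB6 had 27.8, 0, 28.9, 13.3, 19.9 and 12.2 CPM in TAZ-4SA tumours, against 40.4, 42.8 and 29.5 CPM in EV tumours. These groups did not overlap, but neither gene was called (adjusted p of 0.1562 and 0.31, limma). HOXB7, a thoracic gene often transcribed in tumours, overlapped at 28.9, 26.6, 0, 25.4, 26.3 and 70.9 CPM in TAZ-4SA tumours and 37.1, 40.9 and 28.6 CPM in EV tumours. HOXB8 was at 0 in TAZ-4SA tumours 2, 3 and 4, had 3.52, 5.04 and 17.1 CPM in tumours 1, 5 and 6, and 12.7, 11.8 and 18.8 CPM in EV tumours. HOXB3 had 0, 19.8, 1.11, 0.036, 19.9 and 29.04 CPM in TAZ-4SA tumours, against 16.7, 15.9 and 19.7 CPM in EV tumours. Its values thus fell into tumours near 0 and tumours at or above the EV level. HOXB4, known for expanding blood stem cells, was read in 1 of 6 TAZ-4SA tumours, tumour 2, at 27.4 CPM, far above the 0.422 to 0.838 CPM of EV tumours. HOXB2 had a median of 0.420 CPM (0 to 6.11) in TAZ-4SA tumours and 1.03 to 5.80 CPM in EV tumours. HOXB9, a posterior gene, was read in every tumour, at 29.1, 36.5, 32.7, 13.01, 49.5 and 17.4 CPM in TAZ-4SA tumours and 17.5, 17.2 and 17.2 CPM in EV tumours. In 4 of 6 TAZ-4SA tumours it lay well above EV, and its log2 fold change was 0.64 ± 0.54 (adjusted p = 0.4022, limma).

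HOXC lies on chromosome 12, plus strand, and was the most steadily read cluster. HOXC8, a gene of the chest region, had 54.2, 45.3, 15.4, 33.0, 11.8 and 43.4 CPM in TAZ-4SA tumours, against 14.1, 12.7 and 24.1 CPM in EV tumours. Its neighbour HOXC9, a thoracic motor neuron gene, had 33.3, 50.1, 24.1, 61.6, 13.4 and 43.7 CPM in TAZ-4SA tumours, against 18.7, 19.5 and 32.8 CPM in EV tumours. Both overlapped between groups through TAZ-4SA tumours 3 and 5, with log2 fold changes of 0.85 ± 0.60 and 0.56 ± 0.53 and adjusted p of 0.3225 and 0.4617 (limma). With array weights, which give each tumour its own weight, HOXC8 was called higher (adjusted p = 0.02773, limma).

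Paralogs 10 to 13 lie at the 5′ end of the cluster, and 0 of its 8 tested members were called. HOXC10, a lumbar motor neuron gene, had 51.8, 16.1, 17.8, 8.30, 21.0 and 13.1 CPM in TAZ-4SA tumours, against 40.9, 48.4 and 36.0 CPM in EV tumours. HOXC11 had 3.69, 28.3, 8.17, 9.13, 6.72 and 15.6 CPM in TAZ-4SA tumours, against 25.9, 24.6 and 33.8 CPM in EV tumours. A single TAZ-4SA tumour reached the EV range in each, tumour 1 for HOXC10 and tumour 2 for HOXC11. HOXC13, which controls hair and nail keratins, had 5.82, 14.5, 6.51, 6.97, 4.20 and 4.89 CPM in TAZ-4SA tumours, against 25.6, 27.6 and 21.7 CPM in EV tumours. Every TAZ-4SA value lay below every EV value, with a log2 fold change of -1.90 ± 0.82 and an adjusted p of 0.1164 (limma). HOXC12 had 0 reads in all 6 TAZ-4SA tumours, against 2.29, 2.04 and 2.90 CPM in EV tumours, and was at least 5.76-fold lower at the same floor. It lay under the filter and was called only when no filter was used.

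At the other end, HOXC4, HOXC5 and HOXC6 share exons and a start site, so their reads may be split between them. HOXC4 had 27.9, 18.3, 16.2, 3.70, 6.16 and 18.0 CPM in TAZ-4SA tumours, against 23.1, 21.5 and 20.3 CPM in EV tumours. HOXC6 had 24.6, 13.5, 12.0, 29.5, 5.32 and 17.4 CPM in TAZ-4SA tumours, against 27.5, 28.8 and 15.4 CPM in EV tumours. For HOXC5 the values were 4.65, 0, 12.5, 0, 5.32 and 7.64 CPM in TAZ-4SA tumours, against 6.70, 7.09 and 5.29 CPM in EV tumours. All 3 overlapped between groups.

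HOXD lies on chromosome 2, plus strand, and all 9 of its genes had a negative log2 fold change, although 0 were called. HOXD13, the synpolydactyly gene, had 3.58, 0, 0, 20.2, 12.6 and 25.7 CPM in TAZ-4SA tumours, against 49.3, 44.95 and 41.6 CPM in EV tumours. HOXD9 had 0, 0.101, 23.2, 0.539, 28.3 and 5.196 CPM in TAZ-4SA tumours, against 38.9, 37.1 and 56.1 CPM in EV tumours. Neither gene overlapped between groups, and the TAZ-4SA tumours with over 10 CPM were 4, 5 and 6 for HOXD13 and 3 and 5 for HOXD9. The log2 fold changes of HOXD13 and HOXD9 were -3.997 ± 1.81 and -4.37 ± 1.79, with adjusted p of 0.131 and 0.09837 (limma).

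HOXD8 had 7.64, 0, 0, 18.8, 1.12 and 6.42 CPM in TAZ-4SA tumours, against 14.6, 16.9 and 14.8 CPM in EV tumours. HOXD10, which with its paralogs specifies lumbar motor neurons, had 12.0, 0, 0, 0, 5.32 and 10.7 CPM in TAZ-4SA tumours, against 9.93, 10.3 and 7.29 CPM in EV tumours. HOXD11, a forearm gene in mouse, had 14.2, 11.2, 15, 1.29, 5.04 and 0.611 CPM in TAZ-4SA tumours, against 10.1, 14.3 and 16.9 CPM in EV tumours. At least 1 TAZ-4SA tumour reached the EV range in each of the 3. HOXD4 had 0.053, 19.9, 0.861, 0, 5.04 and 0 CPM in TAZ-4SA tumours, against 16.4, 17.4 and 14.8 CPM in EV tumours, so that tumour 2 alone was at or above EV. HOXD1 had 11.9 and 10.7 CPM in TAZ-4SA tumours 1 and 6 and at most 0.101 CPM in the other 4, against 1.499, 2.09 and 6.45 CPM in EV tumours. HOXD3 had 2.03, 0.101, 0, 0, 5.88 and 0 CPM in TAZ-4SA tumours, against 3.65, 5.81 and 6.51 CPM in EV tumours. HOXD12 was read in TAZ-4SA tumours 5 and 6, at 0.840 and 2.14 CPM, and had 1.55 to 3.47 CPM in EV tumours. Of their exonic bases HOXD1, HOXD3 and HOXD4 share 53.1, 88.9 and 80.5% with other genes, so their reads are uncertain.

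In all, 11 of the 36 members had groups without overlap, HOXA3, HOXA5, HOXA7, HOXA11, HOXB5, HOXB6, HOXB13, HOXC12, HOXC13, HOXD9 and HOXD13, each with TAZ-4SA below EV. Of the 34 members tested, 10 were in this list, 29.4% beside 21.3% of all genes tested, and 0 members lay above EV, beside 10.8% of all genes. At 0 reads in all TAZ-4SA tumours was 1 member tested, HOXA7, beside 1.79% of all genes. Per kilobase of transcript, the highest mean levels in TAZ-4SA tumours were those of HOXC9 (24.97 CPM per kb), HOXB7 (21.7) and HOXC8 (17.9), and in EV tumours those of HOXB7 (25.9), HOXD9 (23.6) and HOXC10 (21.6).

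**Figure D5:**
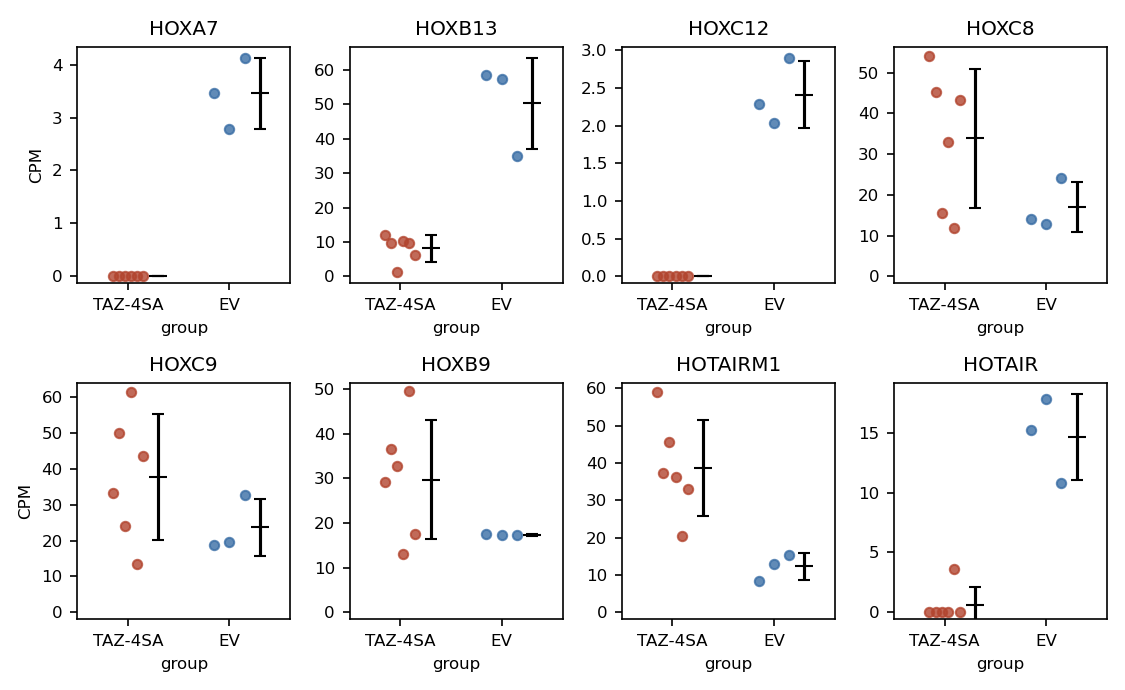
CPM of HOXA7, HOXB13, HOXC12, HOXC8, HOXC9, HOXB9 and the cluster non-coding RNAs HOTAIRM1 and HOTAIR in each tumour, with the mean ± SD beside the points (n = 6 TAZ-4SA, n = 3 EV), genes picked after their values were seen. HOXA7 and HOXC12 sit at 0 in TAZ-4SA tumours, HOXC8, HOXC9 and HOXB9 overlap between groups, and HOTAIRM1 lies above EV.

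Non-coding RNAs made from within the clusters were looked at next, 13 of which were tested. Of these 7 fell (beside 13.3% of all genes), 1 rose (beside 9.02%) and 5 did not pass the test. The median log2 fold change of the 13 was -3.40 (-3.12 with HOXA-AS3 at its bound) beside -0.85 over all genes. Each of the 7 averaged at most 0.62 CPM in TAZ-4SA tumours and so passed the filter at 1 CPM only through the EV tumours. Their count is therefore no support beyond these reads. The 7 falls became 2 without EV 1 or EV 3, 3 without EV 2 and 4 without TAZ-4SA 6. HOXA-AS3, antisense to HOXA7, had 0 reads in all 6 TAZ-4SA tumours, against 3.89, 1.57 and 2.51 CPM in EV tumours, and was at least 6.35-fold lower. It and HOTTIP passed the filter only with the prior added to their means, 0.886 and 0.933 CPM without it. With the prior removed from the mean neither was tested, and 5 of these RNAs fell. HOTAIR, a HOXC transcript known to bind Polycomb proteins, was read in 1 of 6 TAZ-4SA tumours, tumour 5 at 3.64 CPM, against 15.3, 17.9 and 10.8 CPM in EV tumours (log2 fold change -5.86 ± 1.28, adjusted p = 0.006604, limma). HOXC-AS1 and HOXA-AS2 were each read in TAZ-4SA tumour 6 alone, at 3.36 and 1.53 CPM, against 6.40 to 11.1 CPM (HOXC-AS1) and 1.80 to 4.17 CPM (HOXA-AS2) in EV tumours, with adjusted p of 0.01199 and 0.02646 (limma). HOXC-AS1 was no longer called without EV 1 or EV 3 (0.05665 and 0.05722), nor HOXA-AS2 without any of the 3 EV tumours (0.08185 to 0.1249). Quantile normalization ended the calls of HOXA-AS3 (0.1984) and HOXA-AS2 (0.3253). HOTAIRM1, a HOXA transcript that was singled out after its values were seen, rose, with 58.9, 37.3, 45.7, 36.3, 20.4 and 33.0 CPM in TAZ-4SA tumours, against 8.38, 13.02 and 15.4 CPM in EV tumours. Its log2 fold change was 1.62, with an adjusted p of 0.0313 (limma), and the call was lost without TAZ-4SA tumour 1 (0.05951) or without EV 1, 2 or 3 (0.1601, 0.1036 and 0.06625).

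HOX cofactors were counted in the same way. Of 8 tested, PBX3 and MEIS2 rose (beside 9.02% of all genes), MEIS3 fell (beside 13.3%) and 5 did not pass the test. The median log2 fold change was -1.25, beside -0.85 over all genes. With 22.4% of all genes called in either direction, counts this small are not read as a result about the cofactors. PBX3, a TALE homeodomain partner of HOX proteins, averaged 59.5 ± 18.8 CPM in TAZ-4SA tumours and 16.6 ± 1.09 CPM in EV tumours (SD, n = 6 and 3), with a log2 fold change of 1.77 and an adjusted p of 0.007722 (limma). MEIS2 averaged 80.8 ± 47.8 CPM in TAZ-4SA tumours and 25.1 ± 1.77 CPM in EV tumours, and MEIS3 22.2 ± 11.4 CPM in TAZ-4SA tumours and 64.1 ± 7.48 CPM in EV tumours, with adjusted p of 0.04686 and 0.04405 (limma). The groups did not overlap for these 2 genes, MEIS2 above EV (beside 10.8% of all genes tested) and MEIS3 below EV (beside 21.3%). Both were named because they were called, so this adds no support. The MEIS2 call was lost without TAZ-4SA 3, 5 or 6 or any EV tumour (0.06847 to 0.1507), with median-of-ratios scaling (0.0599) and with limma-voom (0.1065). The MEIS3 call was lost without TAZ-4SA 1 or 4 or any EV tumour (0.06909 to 0.1809) and with quantile normalization (0.06423). None of the 4 ParaHox and EVX genes in the table reached the filter.

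Of 13 retinoic acid pathway genes tested, 5 fell (beside 13.3% of all genes), 0 rose (beside 9.02%) and 8 did not pass the test. The median log2 fold change was -2.60. The 5 falls became 3 without EV 2. RXRG and RARG, retinoid receptors, averaged 1.31 ± 3.08 and 15.9 ± 12.7 CPM in TAZ-4SA tumours, against 39.0 ± 8.06 and 121 ± 41.5 CPM in EV tumours, with adjusted p of 0.005565 and 0.007361 (limma). ALDH1A3 and ALDH1A1, which make retinoic acid from retinal, averaged 33.0 ± 23.5 and 2.50 ± 6.08 CPM in TAZ-4SA tumours, against 146 ± 43.2 and 33.3 ± 1.58 CPM in EV tumours, with adjusted p of 0.007657 and 0.01026 (limma). For all 4 genes each TAZ-4SA tumour lay below each EV tumour, beside 21.3% of all genes tested. They were named for the smallest p among the called genes, so this adds no support. RARG was no longer called without EV 2 (0.0613).

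Genes of the chromatin complexes that act on HOX clusters were counted last. Of 26 Polycomb genes 6 rose (beside 9.02% of all genes), 6 fell (beside 13.3%) and 14 did not pass the test, with a median log2 fold change of -0.54. The 6 rises became 3 without EV 1 and 2 without EV 2, and the 6 falls 2 without EV 1 or EV 2 and 1 without EV 3. AEBP2 and SUZ12, parts of the H3K27 methyltransferase complex PRC2, averaged 78.5 ± 25.01 and 98.3 ± 49.4 CPM in TAZ-4SA tumours, against 8.73 ± 2.10 and 14.2 ± 4.79 CPM in EV tumours, log2 fold changes of 3.12 and 2.65 (adjusted p = 2.407e-04 and 0.002939, limma). PHC3, a PRC1 subunit, rose too, with a log2 fold change of 2.15, and its call was lost without EV 2 (adjusted p = 0.05164, limma). CBX8, the PRC1 subunit that reads H3K27 methylation, averaged 14.8 ± 11.2 CPM in TAZ-4SA tumours and 93.9 ± 3.73 CPM in EV tumours, a log2 fold change of -2.97 (adjusted p = 0.005824, limma).

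Of 18 trithorax, H3K27 and H3K79 genes 5 rose (beside 9.02% of all genes), 2 fell (beside 13.3%) and 11 did not pass the test. Their median log2 fold change was 0.10. The 2 falls became 0 without EV 1 or EV 2, 1 without TAZ-4SA 1, 4 or 6, and 4 without TAZ-4SA 3. KMT2A, the MLL methyltransferase that maintains HOX transcription, averaged 172 ± 48.3 CPM in TAZ-4SA tumours and 44.0 ± 4.92 CPM in EV tumours, with a log2 fold change of 1.92 and an adjusted p of 0.001508 (limma). AFF4 and AFF1, scaffolds of the super elongation complex, and KMT2C, an H3K4 methyltransferase, rose as well, with log2 fold changes of 2.86, 2.11 and 1.97. Of 11 genes of CTCF, cohesin and cohesin regulators, 6 rose (beside 9.02% of all genes). Another 5, CTCF among them (log2 fold change -0.34), did not pass the test and 0 fell (beside 13.3%), with a median of 1.37. The 6 rises became 3 without EV 2, and 3 to 8 over all tumours left out in turn. STAG2, PDS5A, WAPL and RAD21 averaged 139 ± 34.0, 122 ± 18.1, 87.3 ± 25.8 and 149 ± 30.3 CPM in TAZ-4SA tumours, against 26.9 ± 3.64, 38.1 ± 1.35, 26.6 ± 0.428 and 65.7 ± 0.596 CPM in EV tumours, with adjusted p between 3.282e-04 and 0.01056 (limma). The RAD21 call was lost without EV 1 or EV 2 (adjusted p = 0.06147 and 0.06109, limma).

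Promoter windows, 250 bases before to 50 after an annotated start, were given by RefSeq (GRCh38.p14) for 17 of the 36 members, in 24 windows. No HOXB gene had a window, HOXC4 and HOXC5 were the only HOXC genes, and HOXA3 had several windows. The shares below therefore do not cover clusters A to D evenly. All 24 windows were searched on both strands for GGAATG, the core bound by TEAD factors, the partners of TAZ. It was in 8 of the 24 windows (33.3%), beside 14% of 35116 windows of the same length. The genes were HOXA3, HOXA10, HOXC4, HOXC5, HOXD4, HOXD8, HOXD10 and HOXD13, of which HOXC4 and HOXC5 share 1 window. The longer form GGAATGT was in 1 window (4.17%, beside 3.46%), and the AP-1 motif TGANTCA in 0 of 24, beside 7.71%. GC content had a median of 57.3% in member windows and 58.7% in all, and the number of CG pairs a median of 22 and 14. A match of these letters is a description and not a bound site, and the tumours' values for these 8 genes include HOXA10, above EV in 4 of 6 TAZ-4SA tumours, as well as HOXD13, below EV in all. The 4 promoters shown, picked after the values were seen, are those of HOXA7, the member with the smallest p, and of HOXD13, HOXD8 and HOXC4, which hold the core. They are the 250 bases before the start, 5′ to 3′ on the gene's strand, at chr7:27156676-27156925 (minus), chr2:176092471-176092720 (plus), chr2:176129455-176129704 (plus) and chr12:54016638-54016887 (plus), with the TEAD core or its reverse complement in capitals and none in that of HOXA7.
HOXA7: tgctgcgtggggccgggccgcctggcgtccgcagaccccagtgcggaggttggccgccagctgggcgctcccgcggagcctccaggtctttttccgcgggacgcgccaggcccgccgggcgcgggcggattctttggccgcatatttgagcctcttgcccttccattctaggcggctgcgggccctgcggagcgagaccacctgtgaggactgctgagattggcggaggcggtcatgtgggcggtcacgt
HOXD13: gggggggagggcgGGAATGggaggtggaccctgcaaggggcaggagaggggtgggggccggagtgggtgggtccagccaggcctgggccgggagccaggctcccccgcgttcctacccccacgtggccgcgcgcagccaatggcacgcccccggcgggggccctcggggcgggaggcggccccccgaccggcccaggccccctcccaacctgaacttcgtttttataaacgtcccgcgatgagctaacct
HOXD8: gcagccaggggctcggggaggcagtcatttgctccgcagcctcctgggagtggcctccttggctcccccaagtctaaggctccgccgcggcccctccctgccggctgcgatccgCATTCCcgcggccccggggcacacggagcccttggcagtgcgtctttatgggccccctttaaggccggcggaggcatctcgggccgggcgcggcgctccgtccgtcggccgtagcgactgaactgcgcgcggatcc
HOXC4: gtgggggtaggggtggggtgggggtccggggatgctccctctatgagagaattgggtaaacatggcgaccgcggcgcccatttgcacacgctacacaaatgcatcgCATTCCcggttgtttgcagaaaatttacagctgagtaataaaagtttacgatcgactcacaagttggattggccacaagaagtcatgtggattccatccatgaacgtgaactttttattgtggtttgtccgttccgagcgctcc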

How the data were processed

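RNA of 9 tumours was extracted with TRIzol and made into libraries with the SMART-Seq mRNA HT kit and Nextera XT, per the labels' protocols. The kit does not mark strand. HISAT2, edgeR and GRCh38 are named in the submitters' processing notes, without roles; any removal of mouse reads, the counting tool and the annotation are not given in the sources used. What the authors deposited were log2 values of CPM plus a prior of 0.145 CPM, a unit read from the values. With the prior removed, 100% of values under 5000 reads were whole within 0.1 read, which gave recovered reads; totals cover the genes of the table. Floors of 3 reads (on average 0.419 CPM for a TAZ-4SA tumour) cover counting error only.

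Groups came from the labels. Nothing says that tumours came from separate animals, so p-values cover only the spread among them, which may be technical. Counts of the closest pair within a group, EV 1 and EV 2, differed by 19.25 times sampling noise (chi-square over its degrees of freedom). No tumours were counted as 1. Libraries made separately from 1 tumour could also exceed sampling noise, so this does not show that they are separate tumours or animals. The test was limma 3.58.1 (R 4.3.3) on the deposited values, TAZ-4SA minus EV, with trend and robust empirical Bayes, for the 15578 genes that averaged 1 CPM or more, adjusted by Benjamini-Hochberg at 0.05. Changes are on the log2(CPM + prior) scale. It understates changes of genes near the prior in a whole group, and with 0 reads in part of a group it gives larger changes than mean CPM does. The mean was taken with the prior included. A filter with the prior removed was run before it, and the choice between them was made after both were seen; it gave 15294 genes and the same 2 HOX calls, but left HOXA-AS3 and HOTTIP untested. The fit was tested on simulated reads with the same spread set for both groups. The real groups differ in spread, so that test does not bear on members with many zeros in TAZ-4SA tumours. Same-numbered tumours of the groups did not pair.

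Members, lists and rules were chosen with earlier results of these data known. Values in each tumour were given for members with a mean of at least 5 CPM in either group or called, and for some below, and other lists were named by up to 4 called genes of smallest p, with WWTR1. The values of 1 member are not reported here. Lengths were medians of GENCODE protein-coding transcripts. Alternatives were pseudocounts, scalings, filters, weights, limma-voom, thinning to 3144861 reads, left-out tumours and a replicate block.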

Additional observations from a re-analysis of the deposited data

Results flagged for a closer look

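In groups of 6, a value was set apart when its gap to the nearest other tumour exceeded 0.625 of the group's range, which chance does in about 1 in 20 groups. Among 36 genes tested this way, 9 had such a value in TAZ-4SA tumours, each the highest of the 6. That rate holds for normal values, and these are CPM with many zeros: a gene read in 1 tumour of the group, as HOXA6, HOXB4 and HOTAIR were, meets the rule by construction, so the count of 9 is not read against it. HOXB4 had 27.4 CPM in TAZ-4SA tumour 2 and 0 in the other 5 tumours of its group. The same tumour stood apart for HOXC13 at 14.5 CPM and HOXD4 at 19.9 CPM. TAZ-4SA tumour 5 stood apart for HOXA6 at 1.40 CPM, HOXD3 at 5.88 CPM and HOTAIR at 3.64 CPM. HOXA2 had 18.2 CPM in TAZ-4SA tumour 3, HOXB8 17.1 CPM in tumour 6 and HOXC10 51.8 CPM in tumour 1. No EV group was tested this way, since it has 3 tumours. HOXD4 and HOXD3 share most exonic bases with other genes.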

How the results depend on the processing

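Of the 34 HOX members tested, 28 kept the direction of their log2 fold change in every alternative run. The count called lower, 2 as reported, was 6 with a pseudocount of 2 CPM, 5 with no filter, 1 with a filter at 10 CPM, 17 with array weights (and 1 higher), 11 with limma-voom, 1 with all libraries thinned, 8 without TAZ-4SA tumours 2, 3 and 4, 4 with tumours 1 to 3 of each group, 6 without TAZ-4SA tumours 5 and 6 (added after the data were seen), and 1 to 5 when each tumour was left out. It was 4 without TAZ-4SA 2, 5 without TAZ-4SA 5 and 1 without EV 1, 2 or 3. Over all genes, 1405 higher and 2079 lower became 2531 and 5630 with array weights, 1920 and 1624 with quantile normalization, 799 to 1685 and 852 to 2688 with each tumour left out, and lower calls 3384 with no filter, 967 at 10 CPM and 3573 with limma-voom. For the lists, 20 higher and 21 lower became 10 to 23 and 8 to 26 with each tumour left out, and lower calls 13 at 10 CPM, 37 with array weights and 32 with limma-voom. Directions turned for HOXB2 (0.26), HOXB4 (1.31) and HOXD1 (1.00) with quantile normalization, for HOXA10 (0.018) and HOXB4 (0.27) with a pseudocount of 2 CPM, for HOXA10 with array weights (0.087) and without TAZ-4SA 3 (-0.95 to 0.72 with each tumour left out), for HOXA10 (0.92), HOXB2 (0.42) and HOXB7 (0.10) without TAZ-4SA 2, 3 and 4, and for HOXB4 (0.21) with tumours 1 to 3. The share of windows with the TEAD core, 33.3%, was 4.17% with the 7-letter form. The log2 ratios of the cluster sums stayed negative under median-of-ratios scaling and with tumours left out, alternatives added after the data were seen. The cause was not tested in any of these.

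Replicate numbers did not pair the groups: deviations of same-numbered tumours correlated at 0.031, 0.0037 and -0.047. TAZ-4SA tumours 4 to 6 have no EV tumour of the same number, so a replicate block takes its change from tumours 1 to 3 of each group. With the block, 2 HOX members were called lower, HOXA7 and HOXD12, with HOXB13 at an adjusted p of 0.1 (limma) and HOXB4 turned to 0.21. Both called members had 0 reads in TAZ-4SA tumours 1 to 3, so their values there had no spread. The block gave 604 higher and 2057 lower over all genes, 8 higher and 11 lower over the lists, and WWTR1 an adjusted p of 0.05941 (limma).

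The edgeR test on recovered reads was not run. With 3 EV tumours and 3144861 reads in the shallowest library, a member near 1 CPM rests on few reads, and 0 reads does not show that a gene is silent.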
